A study of Mus musculus with 6 samples.

Results

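The p53 pathway was followed in mouse back epidermis with and without the gene Spry1. The genes were Trp53, which encodes p53, its regulators and a set of its direct targets, taken from a list of 34 symbols matched to the gene names of the table. All 34 were among the 54532 genes of the table, and 33 had a mean of at least 1 FPKM (fragments per kilobase of gene, scaled to sequencing depth) and were tested. The exception was Gdf15.

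Both groups carried floxed Spry1 on both alleles (Spry1flox/flox) and received tamoxifen. The 3 knockout samples also carried K14-Cre-ERT2, a Cre recombinase that tamoxifen activates, driven by the keratin 14 promoter of basal keratinocytes. The 3 control samples had no Cre, so the effect of Cre, an enzyme that cuts DNA, cannot be told apart from that of losing Spry1. Each tamoxifen dose was 0.1 mg per g of weight, given orally on 4 occasions a week for 4 weeks. Age and sex are not given in the labels, and they do not say whether each sample is a different mouse, so the p-values cover the spread among these 6 samples, part of which may be technical.

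As background, p53 is a transcription factor that is kept low by degradation. Mdm2 marks it for the proteasome, Mdm4 masks its activation domain, and stress signals release it from both. Mdm2 is itself a p53 target, which closes a feedback loop. In keratinocytes, p53 is known for arrest and death after ultraviolet damage, and its relative p63 maintains the epidermis and shares some of its targets, such as Perp and Sfn. Because p53 is controlled mostly at the protein level, mRNA levels alone do not give its activity.

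Spry1 itself stood at 25.75, 28.15 and 34.37 FPKM in controls against 1.06, 1.49 and 1.28 FPKM in knockouts. It had a log2(FPKM + 1) difference of -3.74 ± 0.13, knockout minus control (SE; limma adjusted p of 7.21e-06), and the samples held 18383323 to 21024715 recovered reads each. On the second principal component control replicate 3 stood apart from the other controls, and Eif2s3y, a gene of the Y chromosome, was at 19.3 FPKM in knockout replicate 2 and at 0 to 0.203 FPKM elsewhere. Summed levels of the cell type markers given here did not overlap between genotypes, except those of fibroblasts, which did. Sums of basal keratinocyte markers (6 genes) ranged from 9928 to 10924 FPKM in controls and from 17326 to 21575 FPKM in knockouts. Of these genes, Krt14 rose from a mean of 2706 to 11064 FPKM and Krt5 from 3962 to 6878 FPKM. Krt15 fell from 3323 to 779 FPKM, Col17a1 and Itga6 also fell, and Itgb4 did not pass. Sums of melanocyte markers (4 genes) ranged from 7.81 to 10.8 and from 203 to 207 FPKM. T cell markers (4 genes) ranged from 40.5 to 55.0 and from 6.14 to 11.8 FPKM, and macrophage and neutrophil markers (5 genes) from 8.92 to 16.2 and from 291 to 683 FPKM. Most of the last sum in knockouts was S100a9, at 272, 651 and 231 FPKM, against 2.16 to 5.87 FPKM in controls. C1qb and C1qc were also higher, while Cd68 overlapped between genotypes and did not pass. Langerhans cell markers (4 genes) ranged from 891 to 1471 and from 278 to 437 FPKM, skeletal muscle markers (3 genes) from 9.83 to 39.6 and from 0.613 to 1.52 FPKM, and fibroblast markers (6 genes) from 5.50 to 12.96 and from 1.71 to 5.79 FPKM. In each of these lists the defining markers were above 0 in some sample. Ly6g, of the neutrophil markers, was barely so, at 0.0528 FPKM in knockout replicate 1 and 0 elsewhere. The basal list had 2 members higher and 3 lower, the melanocyte list 4 of 4 higher, the T cell list 4 of 4 lower, and the myeloid list 3 of 4 tested higher. The Langerhans list had 3 of 4 lower, the muscle list 3 of 3 and the fibroblast list 2 of 4 tested. The shares among all genes tested were 29.6% higher and 24.4% lower (limma adjusted p under 0.05). In whole epidermis, fewer cells of a type and less RNA per cell cannot be told apart, and the part of these shifts in the values below was not tested.

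The p53 genes did not move as a block. Of the 33 tested, 13 rose, 9 fell and 11 did not pass the test (limma on log2(FPKM + 1), Benjamini-Hochberg adjusted p under 0.05 over all 12629 genes tested). Among all genes tested, 54% passed, 29.6% upward and 24.4% downward, against 66.7%, 39.4% and 27.3% of the p53 genes. The median log2 difference was 0.19 over the p53 genes and 0.03 over all genes tested. Of the genes that act on the cell cycle 6 of 8 were higher, led by the spindle gene Psrc1, while Cdkn1a did not pass and Btg2 fell. The DNA repair genes that passed were lower, and the apoptosis genes split. The groups did not overlap for 23 of the 33 genes, 14 with the knockouts above and 9 below, where the shares among all genes tested were 64.2%, 34.9% and 29.4%. A change of at least 1.5-fold that passed was seen for 9 higher and 7 lower genes, against 17.4% and 15.4% of all genes tested.

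The scaling of the samples bears on this split. When each sample was scaled to the same FPKM sum (TPM), the median of all genes moved by -0.27 on the log2 scale, and 7 p53 genes were higher and 13 lower in place of 13 and 9. Higher genes made up 35.0% of the calls under TPM scaling and 59.1% in the values as deposited; among all genes tested, TPM scaling gave 16.3% higher and 35.4% lower. Scaling to the recovered reads moved the median by -0.11 and gave 12 higher and 10 lower. No gene that passed in the deposited values changed its direction under any of the 16 alternatives, and 7 of the 13 higher and 7 of the 9 lower genes passed in every one. The 7 higher genes were Psrc1, Plk3, Sfn, Gadd45a, Ccng1, Pmaip1 and Bax. The 7 lower genes were Trp53inp1, Fas, Xpc, Btg2, Rrm2b, Sesn2 and Mdm4.

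**Figure D1:**
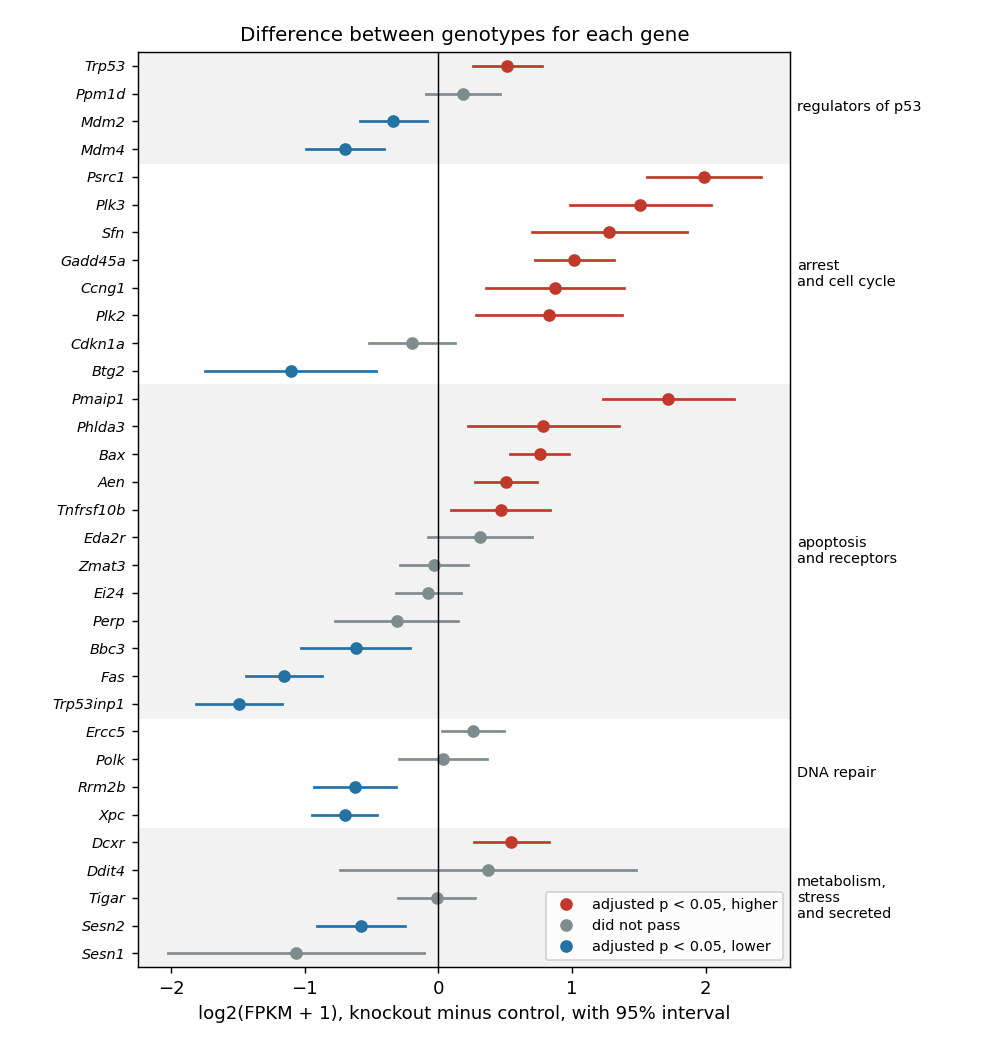
Difference between genotypes for the 33 tested genes, grouped by role. The horizontal axis is log2(FPKM + 1) in the knockout minus the control, points are limma estimates and bars their 95% intervals (n = 3 against 3), red and blue mark an adjusted p under 0.05. Differences run from -1.49 (Trp53inp1) to 1.99 (Psrc1), and each role group other than DNA repair holds both red and blue points.

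**Figure D2:**
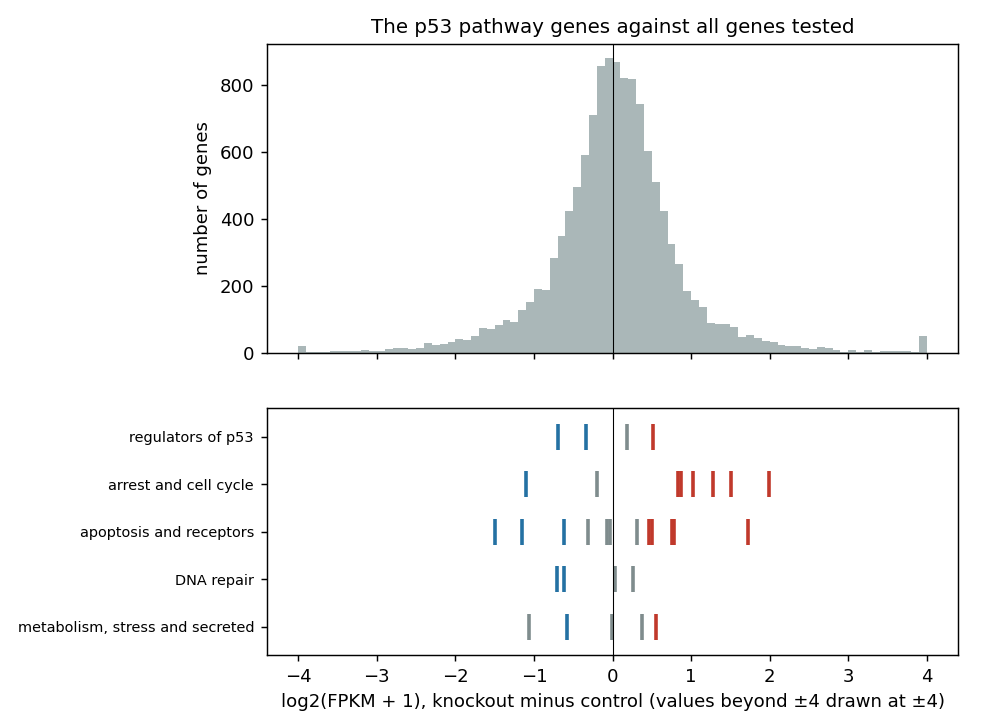
Upper panel, number of genes in each bin of the log2 difference for all 12629 genes tested. Lower panel, the p53 genes by role as ticks on the same axis, coloured as higher (red), lower (blue) or not passed (grey). The ticks lie on both sides of 0, from -1.49 to 1.99.

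Promoter letters were read for the genes that have a RefSeq start, to show where the sequence that p53 recognises lies near these genes. That sequence is a pair of the p53 half-site consensus, 10 bases each, which reads the same on both strands. Windows of 250 bases before to 50 bases after the start were found for 27 of the 34 genes, in 36 windows (RefSeq, GRCm38.p6). A pair of half-sites with the core C and G of each intact, a spacer of at most 13 bases and at most 3 mismatches in 20 was in 41.7% of these windows and in 15.6% of all 32851 windows in the table. The genes were listed as direct targets, so this share is a description and supports nothing. A match shows letters, not binding, and the known p53 elements of Mdm2 lie in its first intron, outside such a window.

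Matches with at most 2 mismatches that lie before the start are printed from 5′ to 3′ on the strand of the gene. Beside them stand 3-mismatch matches of Trp53, Mdm4 and Bbc3, which were chosen by name. Other 3-mismatch matches are not printed, those of Aen, Dcxr, Plk3 and Sfn, which rose, and of Tigar, which did not pass. The printed set therefore does not give the balance of genes that rose and fell. Capitals mark the half-sites, and lower case marks the spacer and up to 20 flanking bases. Of each window only the pair with the fewest mismatches is marked. In Cdkn1a the flank after the capitals begins with letters close to a further half-site, which follows without a spacer. Cdkn1a has another start inside the gene, and the window there held no match. The flank is left out for Gadd45a, whose match already touches an annotated exon. The Sesn1, Mdm4 and Bbc3 matches lie before alternative starts inside the annotated gene.
Ccng1 (1 mismatch, rose, chr11:40755442-40755501, minus strand): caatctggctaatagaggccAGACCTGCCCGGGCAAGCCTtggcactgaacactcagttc
Bax (2 mismatches, rose, chr7:45467059-45467119, minus strand): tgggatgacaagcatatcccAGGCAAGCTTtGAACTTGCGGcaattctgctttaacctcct
Gadd45a (2 mismatches, rose, chr6:67037438-67037463, minus strand): GGACCTGGTTggctgaGGGCTAGCCC
Trp53 (3 mismatches, rose, chr11:69580264-69580323, plus strand): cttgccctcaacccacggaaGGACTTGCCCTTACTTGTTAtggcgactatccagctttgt
Cdkn1a (0 mismatches, spacer of 12, did not pass, chr17:29090886-29090957, plus strand): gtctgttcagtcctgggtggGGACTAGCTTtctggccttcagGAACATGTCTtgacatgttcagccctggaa
Sesn1 (2 mismatches, did not pass, chr10:41887233-41887295, plus strand): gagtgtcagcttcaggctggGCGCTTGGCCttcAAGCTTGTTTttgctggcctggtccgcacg
Mdm4 (3 mismatches, fell, chr1:133025606-133025666, minus strand): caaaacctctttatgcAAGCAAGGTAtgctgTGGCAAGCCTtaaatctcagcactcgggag
Bbc3 (3 mismatches, fell, chr7:16309466-16309525, plus strand): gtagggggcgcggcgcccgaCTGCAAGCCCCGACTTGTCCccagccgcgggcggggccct
Genes with a match rose, fell and did not pass. Of the genes with a window, a match was in 8 of 11 that rose, 2 of 6 that fell and 3 of 9 that did not pass. These counts carry no test.

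Among the regulators, the message of p53 went up and those of both of its inhibitors went down. Trp53 (chr11:69580359-69591873, GRCm38) stood at 15.9, 18.3 and 18.7 FPKM in controls against 29.0, 23.6 and 24.4 FPKM in knockouts. Every knockout lay above every control, and the log2 difference was 0.51 ± 0.11 (SE; limma adjusted p of 0.00674). It did not pass under TPM scaling (limma adjusted p of 0.218). A processed pseudogene, Trp53-ps, was listed at 0.235 to 0.472 FPKM in controls and 0.628 to 0.843 FPKM in knockouts, and how reads common to both copies were assigned is not given in the sources used here.

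Mdm4, the relative of Mdm2 that binds and masks p53 (chr1:132959484-133030561), read 10.4, 9.54 and 11.9 FPKM in controls and 6.86, 6.46 and 5.20 FPKM in knockouts. The groups were apart, with a log2 difference of -0.70 ± 0.12 (SE; limma adjusted p of 0.0032). Mdm2, the ubiquitin ligase of p53 (chr10:117688875-117710758), read 11.7, 11.3 and 13.3 FPKM in controls and 10.2, 9.68 and 8.23 FPKM in knockouts. The shift was small, -0.34 ± 0.11 (SE; limma adjusted p of 0.0327). The call for Mdm2 was lost if control replicate 1 (limma adjusted p of 0.0656) or control replicate 3 (0.0628) was left out, without knockout replicate 2 (0.0664) or 3 (0.0923), and with the replicate number as a block (0.0875). Ppm1d, a phosphatase that switches p53 signalling off and is also its target, read 11.6 to 14.99 FPKM in controls and 14.6 to 16.9 FPKM in knockouts. Its groups overlapped and it did not pass (log2 difference 0.19, 95% interval -0.09 to 0.46, and -0.08 under TPM scaling).

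**Figure D3:**
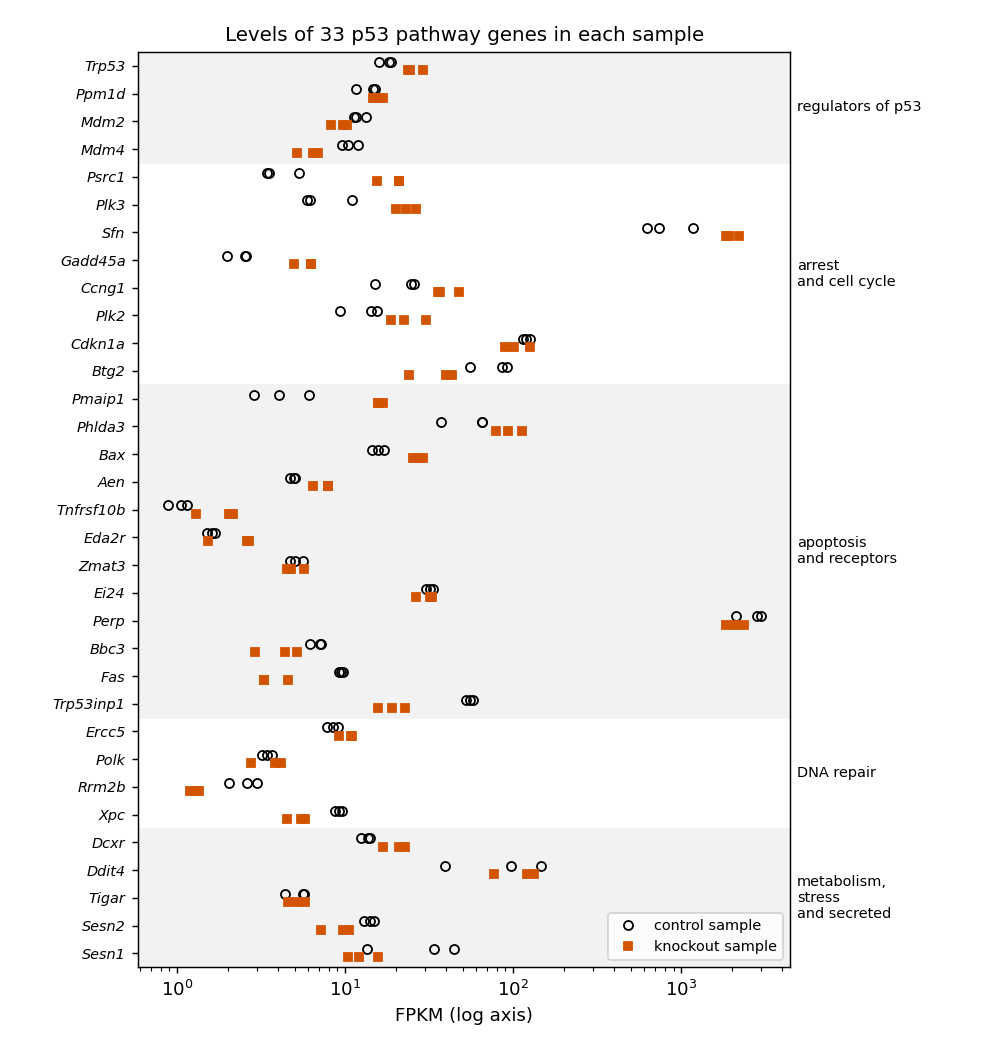
FPKM of the 33 tested genes in each of the 6 samples, on a log axis. Open circles are control samples and orange squares knockout samples. Control means run from 1.03 FPKM for Tnfrsf10b to 2635 FPKM for Perp, and circles and squares are apart for 23 genes.

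Of the 8 genes that act on the cell cycle, 6 rose, 1 fell and Cdkn1a did not pass, where 29.6% of all genes tested rose and 24.4% fell. Cdkn1a encodes p21, the cyclin-dependent kinase inhibitor through which p53 arrests cells in G1 (chr17:29090976-29100727). It read 119, 114 and 127 FPKM in controls and 101, 126 and 89.3 FPKM in knockouts. The groups overlapped, with knockout replicate 2 inside the control range (log2 difference -0.20, 95% interval -0.52 to 0.13, limma adjusted p of 0.255). Under TPM scaling it was lower by -0.48 (limma adjusted p of 0.0453). It was the third most abundant of the 34 genes in controls per length and the fourth in knockouts.

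Psrc1, a microtubule-binding protein of the mitotic spindle that p53 induces, had the largest rise with all samples; without control replicate 3 that of Pmaip1 was larger (1.95 against 1.90). Its values were 3.51, 5.35 and 3.43 FPKM in controls and 20.9, 20.9 and 15.5 FPKM in knockouts. The log2 difference was 1.99 ± 0.18 (SE; limma adjusted p of 0.000205), and the linear ratio of the means was 4.66. Gadd45a, a stress protein that restrains Cdk1 and engages the p38 pathway, read 2.58, 2.54 and 1.98 FPKM against 6.23, 6.27 and 4.96 FPKM (1.02 ± 0.12, SE; limma adjusted p of 0.000675). Part of its exons (19.1% of the bases) is shared with an opposite-strand transcript, E230016M11Rik, whose reads cannot be told apart here.

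Plk3, a polo-like kinase of the stress response, read 5.94, 6.20 and 10.97 FPKM in controls and 26.5, 23.0 and 20.0 FPKM in knockouts (1.51 ± 0.22, SE; limma adjusted p of 0.0015). Sfn encodes 14-3-3 sigma, which holds Cdk1 in the cytoplasm and marks stratified epithelium. It read 629.7, 733 and 1182 FPKM in controls and 1835, 1934 and 2208 FPKM in knockouts (1.28 ± 0.25, SE; limma adjusted p of 0.00459). For both genes control replicate 3 was the highest control and still lay below every knockout. Sfn was second only to Perp in level in both genotypes.

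Ccng1, or cyclin G1, a p53 target that recruits a phosphatase to Mdm2, read 24.7, 25.8 and 14.99 FPKM in controls and 36.8, 47.65 and 35.7 FPKM in knockouts (0.87 ± 0.22, SE; limma adjusted p of 0.0135). Its promoter match, printed above, has 1 mismatch and no spacer. Plk2 had a mean of 13.04 ± 3.28 FPKM in controls and 23.9 ± 5.97 FPKM in knockouts (SD, n = 3 each), but did not pass without knockout replicate 1 (limma adjusted p of 0.052) or 2 (0.0586) or under TPM scaling (0.106).

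Btg2, an antiproliferative cofactor of mRNA deadenylation and an early p53 target, was the member of this group that fell. It read 55.4, 86.0 and 91.3 FPKM in controls and 43.2, 40.1 and 24.1 FPKM in knockouts. The groups were apart, with a log2 difference of -1.10 ± 0.27 (SE; limma adjusted p of 0.0123).

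The 12 genes of apoptosis and its receptors split into 5 that rose, 3 that fell and 4 that did not pass, or 2 higher and 5 lower under TPM scaling. Among all genes tested 29.6% were higher and 24.4% lower, or 16.3% and 35.4% under TPM scaling. The BH3-only genes Pmaip1 and Bbc3, which encode Noxa and Puma, went opposite ways. Pmaip1 read 2.88, 4.03 and 6.09 FPKM in controls and 15.6, 16.9 and 15.7 FPKM in knockouts (1.72 ± 0.21, SE; limma adjusted p of 0.000623). The knockout samples were nearly equal while the highest control was 2.11 times the lowest. Bbc3 read 7.08, 7.18 and 6.16 FPKM in controls and 5.18, 4.40 and 2.92 FPKM in knockouts (-0.62 ± 0.17, SE; limma adjusted p of 0.0205). Its call was lost if either control replicate 1 (limma adjusted p of 0.0611) or control replicate 2 (0.0599) was left out.

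Bax, the effector that both Noxa and Puma help to activate at mitochondria, read 15.7, 17.0 and 14.5 FPKM in controls and 27.6, 29.1 and 25.2 FPKM in knockouts. The difference was 0.76 ± 0.09 (SE; limma adjusted p of 0.00069), with tight groups that were far apart. Its exons share 12.2% of their bases with the same-strand gene model Gm45808. Aen, a nuclease of apoptosis, read 4.97, 5.05 and 4.71 FPKM in controls and 7.88, 7.91 and 6.48 FPKM in knockouts. It rose by 0.51 ± 0.10 (SE; limma adjusted p of 0.00454) and did not pass under TPM scaling (0.132). Phlda3, which competes with Akt for membrane lipid, had means of 55.7 ± 15.9 and 94.9 ± 16.6 FPKM (SD, n = 3 each; log2 difference 0.79, limma adjusted p of 0.0281). Its call was lost without knockout replicate 1 (limma adjusted p of 0.0708) or 2 (0.0883), under TPM scaling (0.0807) and with no filter on low values (0.0636).

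The death receptors differed from each other. Fas (chr19:34290666-34327772) read 9.47, 9.23 and 9.71 FPKM in controls and 4.59, 3.30 and 3.31 FPKM in knockouts (-1.16 ± 0.12, SE; limma adjusted p of 0.000351). The controls were nearly equal and every knockout lay far below them, with a ratio of the means of 0.394. Fas is also made by lymphocytes, and the T cell markers fell in the same samples; their part in the Fas values was not tested. Tnfrsf10b, the TRAIL receptor of mice, read 1.06, 0.883 and 1.14 FPKM in controls and 2.15, 2.03 and 1.29 FPKM in knockouts. It stood at the threshold (0.47 ± 0.16, SE; limma adjusted p of 0.0401). That call was lost under 10 of the 16 alternatives, among them leaving out control replicate 1 (limma adjusted p of 0.0854), control replicate 2 (0.109) or knockout replicate 1 (0.132) or 2 (0.119). Eda2r, the receptor of ectodysplasin A2, read 1.499 to 1.68 FPKM in controls and 2.60, 2.69 and 1.54 FPKM in knockouts, short of the threshold (limma adjusted p of 0.148). Knockout replicate 3 alone lay in the control range, and without it Eda2r passed (limma adjusted p of 0.0186).

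Trp53inp1, a nuclear stress protein that helps p53 phosphorylation and autophagy, had the largest fall among the p53 genes with all samples; without control replicate 3 that of Sesn1 was larger (-1.55 against -1.46). It read 55.1, 52.6 and 57.3 FPKM in controls and 19.0, 22.8 and 15.6 FPKM in knockouts. The log2 difference was -1.49 ± 0.14 (SE; limma adjusted p of 0.000207), and the ratio of the means was 0.348.

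The other 3 apoptosis genes did not pass. Perp, a desmosomal membrane protein that p63 drives in epidermis, was the most abundant of all the p53 genes, at 2973, 2825 and 2107 FPKM in controls and 1851, 2379 and 2100 FPKM in knockouts. Its groups overlapped (log2 difference -0.31, 95% interval -0.77 to 0.15, limma adjusted p of 0.209), and it passed as lower with TPM (limma adjusted p of 0.00872) or with array weights (0.0433). Ei24, of the endoplasmic reticulum, read 30.4 to 33.5 and 26.5 to 33.03 FPKM (95% interval -0.32 to 0.17), but passed as lower with TPM (limma adjusted p of 0.0163). Zmat3, an RNA-binding protein, read 4.70 to 5.59 and 4.497 to 5.69 FPKM (95% interval -0.28 to 0.23).

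**Figure D4:**
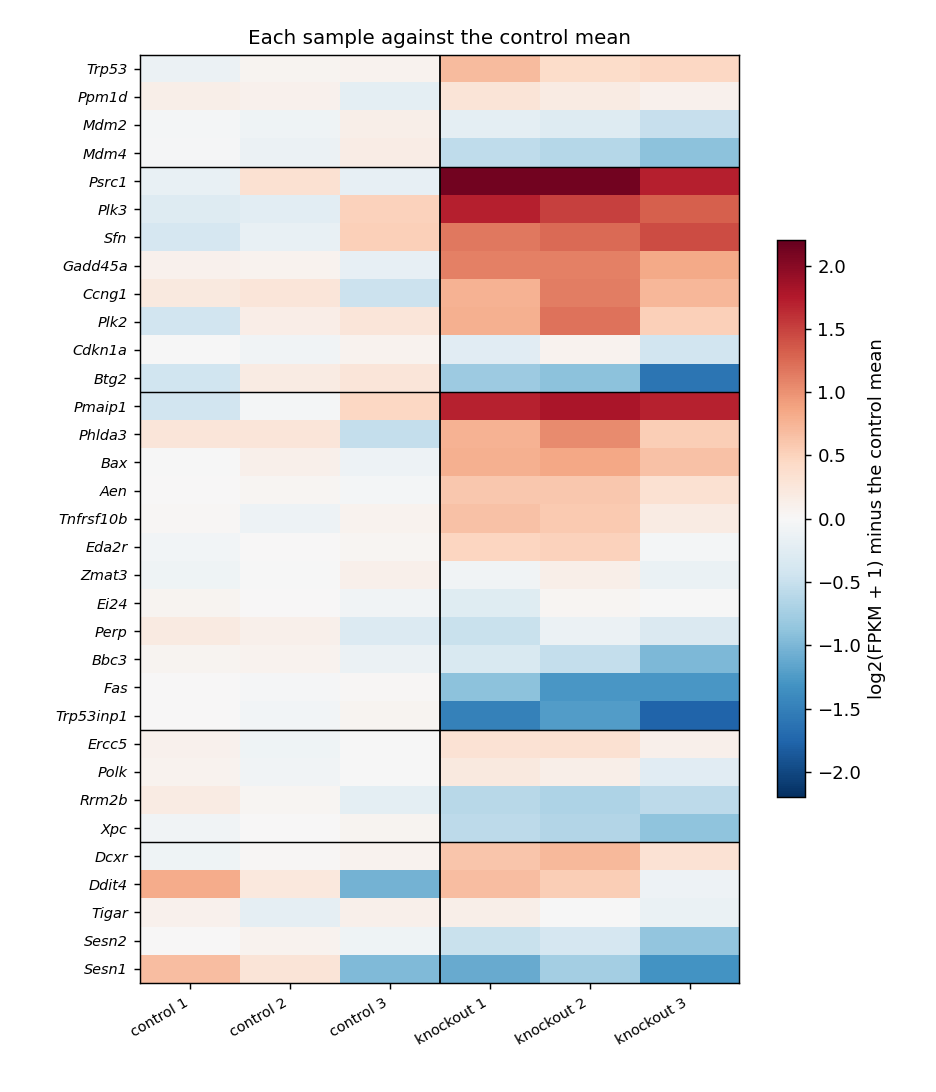
Each of the 33 tested genes in each sample, as log2(FPKM + 1) minus the mean of the 3 controls, on a scale from blue (lower) to red (higher); black lines part the genotypes and the role groups. The 3 knockout columns share their colour in most rows, and control replicate 3 departs from the other controls for genes such as Sesn1 and Ddit4.

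Of the 4 DNA repair genes, 2 fell and none rose, where 24.4% of all genes tested fell and 29.6% rose. Xpc, the sensor of helix distortion that begins global nucleotide excision repair of ultraviolet damage, read 8.67, 9.21 and 9.58 FPKM in controls and 5.81, 5.45 and 4.53 FPKM in knockouts (-0.70 ± 0.10, SE; limma adjusted p of 0.0014). Rrm2b, the p53-induced small subunit of ribonucleotide reductase that makes nucleotides for repair, read 2.98, 2.61 and 2.03 FPKM against 1.30, 1.20 and 1.35 FPKM (-0.62 ± 0.13, SE; limma adjusted p of 0.00652). Both sets of groups were apart. An opposite-strand transcript, Gm49085, shares 8.04% of the Rrm2b exon bases.

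Ercc5, the endonuclease that cuts on the 3′ side of a lesion in the same repair pathway as Xpc, went the other way without passing. It read 7.83 to 9.07 FPKM in controls and 9.17 to 10.9 FPKM in knockouts. The groups did not overlap, but the difference was small (0.26, 95% interval 0.03 to 0.49, limma adjusted p of 0.0598). It passed without knockout replicate 3 (limma adjusted p of 0.0353) and with array weights (0.0301), and was 0.01 under TPM scaling. Polk, a polymerase that copies past lesions, read 3.22 to 3.69 and 2.74 to 4.16 FPKM (limma adjusted p of 0.86), and its sign was negative under TPM and other scalings.

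The 6 genes of metabolism, stress and secretion gave 1 rise and 1 fall, or 0 higher and 2 lower under TPM scaling. The shares among all genes tested were 29.6% higher and 24.4% lower, or 16.3% and 35.4% under TPM scaling. Sesn2, a sestrin that restrains mTORC1 and helps to clear peroxides, read 14.1, 14.9 and 13.04 FPKM in controls and 9.67, 10.6 and 7.19 FPKM in knockouts (-0.58 ± 0.14, SE; limma adjusted p of 0.0115). Its relative Sesn1 (chr10:41809935-41908424) read 44.2, 33.7 and 13.5 FPKM in controls and 12.1, 15.8 and 10.3 FPKM in knockouts. Control replicate 3 was close to the knockouts, the groups overlapped and the gene did not pass (-1.06 ± 0.40, SE; limma adjusted p of 0.061). Without control replicate 3, Sesn1 was lower by -1.55 (limma adjusted p of 0.00129), and it also passed under TPM scaling (0.0187), scaled to recovered reads (0.0376), in limma-voom (0.0411), with array weights (0.00291) and with the replicate block (0.0332).

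Dcxr, a carbonyl reductase of sugar metabolism, read 12.4, 13.7 and 14.1 FPKM in controls and 21.01, 22.6 and 16.9 FPKM in knockouts (0.55 ± 0.12, SE; limma adjusted p of 0.00781). It did not pass under TPM scaling (limma adjusted p of 0.183). Ddit4, or Redd1, an mTORC1 inhibitor that glucocorticoids and low oxygen also induce, varied more among the controls than any other tested p53 gene, at 146.7, 96.6 and 39.4 FPKM. The knockouts read 133, 120.4 and 76.4 FPKM, inside that range, and the 95% interval ran from -0.74 to 1.48 (limma adjusted p of 0.529). Without control replicate 3 the estimate turned from 0.37 to -0.15. Tigar, which lowers fructose-2,6-bisphosphate, read 4.41 to 5.72 and 4.59 to 5.77 FPKM (95% interval -0.30 to 0.28).

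Gdf15, a secreted stress cytokine, was at the limit of detection. It was listed at 0 in every control and at 0.0269, 0.218 and 0 FPKM in the knockouts, or 1, 7 and 0 recovered reads. A count of 0 allows up to 3 reads, or 0.0831 to 0.0889 FPKM in a control library, counting error only, so no fold is given.

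Wider lists of the pathway were read from the same fit. Of 13 tested kinases and modifiers of p53, 2 were higher and 2 lower, a smaller share than the 29.6% and 24.4% among all genes tested. Chek2, a checkpoint kinase that phosphorylates p53, read 2.12, 2.92 and 3.52 FPKM in controls and 5.94, 6.80 and 5.27 FPKM in knockouts (limma adjusted p of 0.00351). Usp7, which removes ubiquitin from Mdm2 and p53, went from 33.5 ± 2.36 to 26.0 ± 0.175 FPKM (SD, n = 3 each; limma adjusted p of 0.00952). Trp53bp1, a repair scaffold at double-strand breaks, had a log2 difference of -0.38 (limma adjusted p of 0.017). That call was lost under 2 of the 16 alternatives, without knockout replicate 2 (limma adjusted p of 0.059) and without it and control replicate 3 (0.0702). Under TPM scaling, and when scaled to recovered reads, 1 was higher and 6 lower. Among all genes tested 16.3% were higher and 35.4% lower under TPM scaling, and 23% and 29.6% when scaled to recovered reads.

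The relatives of p53 differed from each other as well. Trp73 read 3.42, 3.68 and 3.58 FPKM in controls and 10.7, 7.49 and 6.59 FPKM in knockouts (0.996 ± 0.16, SE; limma adjusted p of 0.00214). Trp63, the epidermal master regulator, read 88.1, 93.0 and 69.6 FPKM in controls and 62.7, 59.6 and 70.3 FPKM in knockouts. Its groups overlapped at control replicate 3 and knockout replicate 3, and it barely passed (-0.37 ± 0.13, SE; limma adjusted p of 0.0491). That call was lost when any 1 sample other than control replicate 3 was left out (limma adjusted p of 0.0541 to 0.144).

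Of 18 tested further direct targets of p53, 8 were higher and 3 lower, which is 11 called in all and near the 54% of all genes tested. Ckap2, a protein of the mitotic spindle, read 2.53, 3.45 and 4.596 FPKM in controls and 12.1, 14.1 and 10.1 FPKM in knockouts (limma adjusted p of 0.00069). Cd82, a membrane tetraspanin, read 95.2, 86.7 and 77.1 FPKM against 18.1, 16.6 and 17.0 FPKM (-2.26 ± 0.10, SE; limma adjusted p of 1.59e-05), a larger fall than that of any of the 34 genes. Under TPM scaling 4 were higher and 5 lower, where the shares among all genes tested were 16.3% and 35.4%.

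Genes of cell division that p53 represses through p21 and the DREAM complex were higher in 14 of 14, in every alternative run, with a median log2 difference of 1.96. Among all genes tested, 29.6% were higher in the values as deposited and 16.3% under TPM scaling. Ccnb2, Cdc20 and Plk1, which act in mitosis, had log2 differences of 2.32, 2.44 and 2.52. Psrc1, listed among the p53 targets, is also a mitotic spindle gene, with a log2 difference of 1.99. Cdkn1a, the p21 gene, read 120 ± 6.57 and 105 ± 18.8 FPKM in the same samples (SD, n = 3 each).

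**Figure D5:**
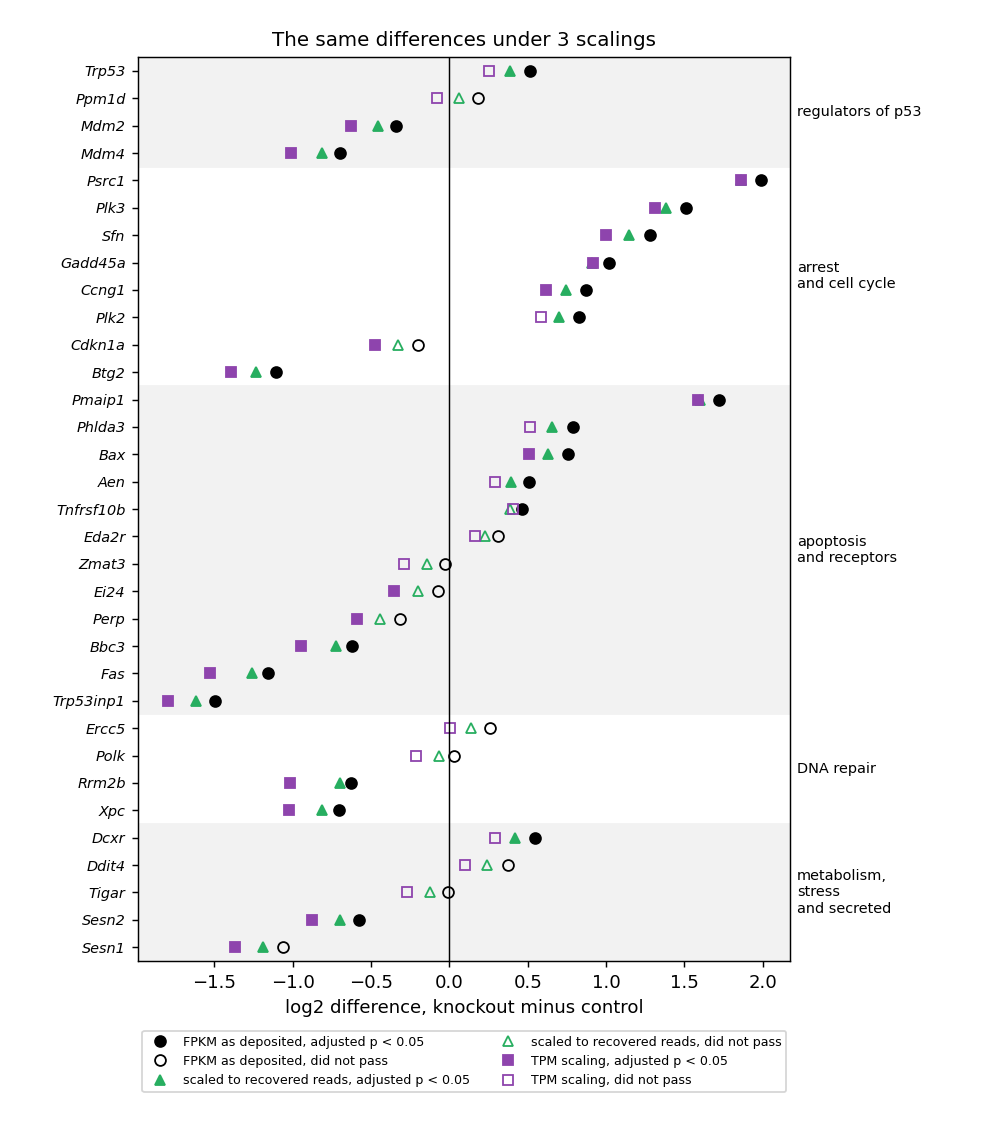
Log2 difference between genotypes for the 33 tested genes in the values as deposited (black circles), scaled to recovered reads (green triangles) and under TPM scaling (purple squares); filled symbols have an adjusted p under 0.05. TPM scaling shifts the genes to the left, which leaves 7 higher and 13 lower genes against 13 and 9 as deposited.

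The spread between samples was uneven across these genes. The coefficient of variation had a median of 11.2% in controls and 14.1% in knockouts. Control replicate 3 differed from the mean of the other controls by at least 1.5-fold for 7 of the 33 genes (21.2%, against 18.1% of all genes tested). It was low for Ddit4, Sesn1, Phlda3 and Ccng1 and high for Plk3, Pmaip1 and Sfn. Without it, 13 p53 genes were higher and 9 lower, as with all samples, and the largest move of a gene that passed was that of Sfn, from 1.28 to 1.55.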

How the data were processed

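RNA from back epidermis of 3 control and 3 knockout samples was sequenced. The authors deposited FPKM values per gene; HISAT2 2.0.5, featureCounts 1.5.0-p3 and the build GRCm38 (mm10) are named per the submitters' processing notes, while the strand setting and annotation release are unstated there and in the labels. FPKM was taken as deposited, log2(FPKM + 1) was fitted by genotype with limma 3.58.1 (trend, R 4.3.3) over the 12629 genes whose mean reached 1 FPKM, and p-values were two-sided and Benjamini-Hochberg adjusted over all of them, with a threshold of 0.05. Fold changes on this scale understate those of low genes. Whole reads were recovered from the steps of low FPKM values with GENCODE M21 exon lengths (97.0% to 97.3% of values whole within 0.1 reads), for scaling and limma-voom alternatives. The totals by which the authors scaled came to 98.8% to 102.9% of the recovered reads in controls and 88.1% to 95.6% in knockouts. Limma-voom called 3479 genes higher and 3402 lower. The fits were tested on simulated data. There the main fit called 23.4% of true 1.5-fold changes and 88.9% of 2-fold changes, and limma-voom called 42.2% and 93.7%. Far fewer genes were changed in the simulation than passed here, so these shares do not carry over to the p53 genes. Coordinates come from GENCODE M21, and 54495 gene IDs matched it.

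The members and lists were chosen with earlier results of these data known, and no pattern is independent support. All 34 genes are named or counted. Values in every sample are given for Trp53, Mdm2, Cdkn1a and, in each role group, up to 5 genes with the lowest p past the threshold, and for others where they help a comparison; of each wider list at most 3 with the lowest p are named, with Trp63 and Trp73; 1 gene that this rule names is not reported here. The 16 alternatives were in the pseudocount, filter, scaling, test, weights, replicate block, gene type and samples left out. A fold threshold of 1.5 was applied only to the counts of genes and is not among the 16.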

Additional observations from a re-analysis of the deposited data

How the results depend on the processing

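Of the 22 genes that passed, 14 passed under all 16 alternatives and none changed sign. Under TPM scaling 7 genes were higher. Leaving out 1 sample at a time gave 10 to 15 higher and 7 to 9 lower genes, and a further threshold of 1.5-fold gave 9 higher and 7 lower. The replicate block gave 12 higher and 9 lower genes; Mdm2 (limma adjusted p of 0.0875) and Tnfrsf10b (0.0861) lost their call and Sesn1 (0.0332) gained it. Same-numbered samples had correlations of deviations of -0.0981, -0.111 and -0.125, so the numbers were not taken as pairing the samples. Sign changes were limited to 6 genes that did not pass. Zmat3 turned to 0.0318 with array weights and to 0.0262 and 0.0302 without control replicate 3 or knockout replicate 3. Ei24 turned to 0.0205 without knockout replicate 1 (leaving out 1 sample gave -0.133 to 0.0205), and Ppm1d to -0.0783 under TPM scaling. Ddit4 turned to -0.15 without control replicate 3 and to -0.24 without it and knockout replicate 2 (leaving out 1 sample gave -0.15 to 0.783). Polk turned to -0.0074 with median-ratio scaling, -0.21 under TPM, -0.0683 scaled to recovered reads, -0.00078 in limma-voom, -0.0037 without control replicate 2, -0.0598 and -0.0154 without knockout replicate 1 or 2, and -0.0184 without control replicate 3 and knockout replicate 2 (leaving out 1 sample gave -0.0598 to 0.173). Tigar turned to 0.0547 with array weights, 0.03 and 0.05 without control replicate 1 or 3, 0.0601 without knockout replicate 3 and 0.0419 without control replicate 3 and knockout replicate 2. Apart from the scalings, the cause was not tested. The least covered tested p53 gene had 68 reads in its lowest sample, and Gdf15 was below what this depth can compare.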

Other observations

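Knockout replicate 3 was the lowest of the knockouts for 26 of the 33 tested p53 genes, or 78.8%, where the share among all 12629 genes tested was 34.4%. It was so for genes that rose, such as Psrc1 (15.5 FPKM), and for genes that fell, such as Btg2 (24.1 FPKM). Without this sample 15 p53 genes were higher and 8 lower. The members were not chosen for this pattern, but it was noticed in the data and carries no test.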
